A study of Arabidopsis thaliana with 30 samples.

Results

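The response of WRKY63 knockout leaves to high light was taken from 6 of the 30 arrays of the series, chosen by their titles. They are 3 arrays of Atwrky63 KO plants held for 1 h at 1000 μE per m2 per s and 3 arrays of untreated Atwrky63 KO plants. The study hybridised leaf RNA of 21-day-old Arabidopsis thaliana plants to the Affymetrix array of this species, and all plants had 2 days of cold as seeds on soil and then a photoperiod of 16 h light and 8 h dark. Each of 5 genotypes was sampled in high light and untreated, with 3 arrays a group. The other 4 genotypes were a WRKY63 overexpressor (line OE_WRKY63.3), a WRKY40 knockout (Atwrky40), a WRKY40 overexpressor (line OE_WRKY40.4) and the wild type Col-0. The labels name neither the knockout allele nor the promoter of the overexpressors, and each overexpressor is 1 line. Nor do they say that the replicates of a group came from separate plants or pots, and each p-value rests on the spread between arrays, which may be technical. The series' design text names WRKY60 where its title and sample labels name WRKY63, and no probe set is named WRKY63 in the annotation used, so the loss of the transcript was not analysed here.

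Light beyond what photosynthesis can use loads the chloroplast with reactive oxygen and warms the leaf. Plants answer within minutes to hours through heat shock factors, which switch on small heat shock proteins and the HSP70, HSP90 and HSP100 machines that hold and refold damaged proteins, and through zinc finger, bZIP and WRKY transcription factors. WRKY63 is a member of the WRKY family, which binds W-box motifs, and with WRKY40 it has been studied as a regulator of stress-responsive genes for mitochondrial and chloroplast proteins.

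Values are MAS5 signals, a scaled array intensity, and changes are differences of log2(signal + 1). Changes that involve signals near 0 depend on the number added, the pseudocount, and 16 in place of 1 was also tried. After the controls were left out, 15922 of 22746 probe sets passed a filter on mean signal (at least 46.7). Of these, 8768 named 1 gene, 323 named several and 6831 are unnamed here. In the knockout, limma called 7399 probe sets (46.5% of those tested) at an adjusted p under 0.05, of which 2253 (14.2% of those tested) were higher in high light and 5146 (32.3%) were lower. Lower calls were the more numerous, and higher calls were the larger. At 4-fold or more, 503 probe sets were higher and 312 lower. At 16-fold or more, 110 were higher and 13 lower, and at 64-fold or more 35 were higher and 1 lower. The median change over all probe sets tested was -0.22 with the deposited scaling and -0.08 after quantile normalization, which moved the split of the calls to 2808 higher and 3834 lower. Changes are given here with the deposited scaling.

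The arrays of the 2 lights stood apart. Median signals were 148.4 to 151.1 in high light and 177.5 to 185.3 untreated, which gave an exact two-sided permutation p of 0.1, the smallest that 3 against 3 arrays can give. Pearson's r of log2 signals was 0.977 to 0.979 among high light arrays and 0.968 to 0.978 among untreated arrays, and 0.830 to 0.858 between the lights. The 3′ over 5′ log2 ratio of the actin control was 1.58 ± 0.08 in high light and 1.68 ± 0.01 untreated, and that of the GAPDH control was 0.07 ± 0.07 in high light and 0.24 ± 0.08 untreated (SD, n = 3 each, exact p of 0.1 for both). The part of these gaps in the results was not tested. Of 10 leaf mesophyll markers, 2 were named and both were bright, with summed signals of 45038 to 53130 in high light and 43210 to 48799 untreated. The root marker PYK10 was 223.5 ± 50.1 in high light and 471.5 ± 248.6 untreated, with no call (limma adjusted p = 0.13). EXPA7, the other named root marker, did not pass the signal filter (43.4 ± 23.3 in high light and 42.6 ± 9.02 untreated). Nor did the pollen and flower marker AT5G45880 (30.9 ± 38.4 in high light and 111.0 ± 82.6 untreated). The guard cell marker FMA was 220.7 ± 34.1 in high light and 219.1 ± 19.4 untreated. In bulk leaves, fewer cells of a type and less RNA per cell cannot be told apart.

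Small heat shock proteins, which bind unfolding proteins without ATP, made the steepest rises. Of 16 listed genes 9 were named and kept, of which 8 rose and none fell, beside 14.2% of all probe sets higher. Their median change was 8.32, against -0.22 over all probe sets. AT5G51440, a mitochondrial small heat shock protein, had signals of 16939, 13329 and 11411 in high light and 4.89, 4.49 and 4.19 untreated. The untreated signals were near 0 on this scale and the groups did not overlap, a change of 11.28 ± 0.29 (SE, limma adjusted p = 1.8e-20). AT1G52560, of the same HSP20-like fold, had 10728, 10541 and 7903 in high light and 4.12, 8.42 and 9.02 untreated, a change of 10.26 ± 0.62 (SE, limma adjusted p = 6.25e-13). The class I cytosolic protein AT1G53540 had 30134, 26672 and 22941 in high light and 16.6, 40.1 and 34.2 untreated, a change of 9.81 ± 0.70. In each of these genes all high light arrays lay far above all untreated ones. A second class I gene, AT2G29500, had 31914, 27472 and 24537 in high light and 45.3, 29.0 and 51.1 untreated, a change of 9.38 ± 0.35. ATHSP22.0 (AT4G10250), of the endoplasmic reticulum, had 20462, 20320 and 17074 in high light and 41.5, 93.6 and 53.0 untreated, a change of 8.32 ± 0.66. Cytosol, mitochondrion and endoplasmic reticulum were thus all represented among the largest rises.

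The other members changed by less. The peroxisomal protein AT5G37670 had 13943, 11531 and 10564 in high light and 92.3, 159 and 125 untreated. AT1G54050 changed by 5.19 ± 0.19 and AT2G19310 by 3.73 ± 0.12, AT2G19310 with 16503, 15634 and 13225 in high light and 985, 1142 and 1287 untreated. AT4G21870 was the member that did not pass, with 443, 440 and 512 in high light and 402, 291 and 310 untreated (0.49 ± 0.43, limma adjusted p = 0.38). Its groups did not overlap, and it passed when the 6 arrays were fitted alone (adjusted p = 0.022).

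**Figure D1:**
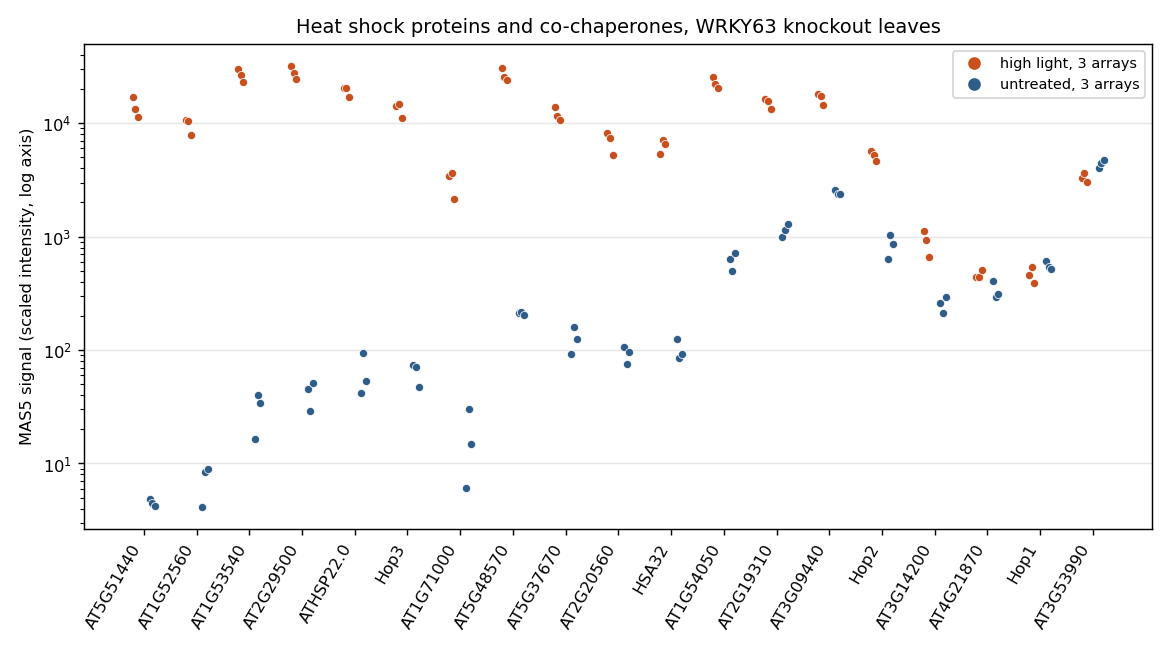
Signals of the 19 kept small heat shock proteins, HSP70, HSP90 and HSP100 proteins and co-chaperones in the 3 high light arrays (orange, left of each gene) and the 3 untreated arrays (blue, right) of the WRKY63 knockout, on a log axis and sorted by log2 change. AT5G51440 runs between 11411 and 16939 in high light and between 4.19 and 4.89 untreated, and Hop1 at the right end shows overlapping groups.

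Co-chaperones rose as well. In the list of HSP70, HSP90, HSP100 and co-chaperones, 8 of 10 kept genes rose, none fell and 2 did not pass, with a median of 4.37. Most of the 10 were co-chaperones or other partners. AT3G09440 was the only HSP70 among them, and none was an HSP90 or HSP100. The share called higher over all probe sets was 14.2%. Hop3, which bridges HSP70 and HSP90, had 14109, 14625 and 11208 in high light and 74.0, 70.4 and 47.3 untreated, a change of 7.70 ± 0.46 (SE, limma adjusted p = 5.32e-13). AT1G71000, a J-domain protein that hands clients to HSP70, had 3454, 3629 and 2155 in high light and 6.09, 30.2 and 14.8 untreated, a change of 7.63 ± 0.74. AT5G48570, an FK506-binding immunophilin that docks on HSP90, had 30942, 25748 and 24116 in high light and 214, 215 and 203 untreated, a change of 6.98 ± 0.15. None of these groups overlapped. AT5G07330, a gene with no role given here, was the other gene among the 10 largest rises outside the glycosyltransferases (888, 1633 and 824 in high light and 4.98, 6.25 and 7.36 untreated).

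AT2G20560, another J-domain protein, changed by 6.22, HSA32, which is needed to hold acquired heat tolerance, by 5.98, and the cytosolic HSP70 AT3G09440 by 2.76. The Hop family split. Hop2 had 5681, 5254 and 4599 in high light and 638, 1038 and 857 untreated (2.64 ± 0.20), while Hop1 had 458, 535 and 390 in high light and 611, 543 and 522 untreated (-0.29 ± 0.13, limma adjusted p = 0.085). The universal stress protein AT3G53990 had 3274, 3614 and 3049 in high light and 4013, 4491 and 4694 untreated. Its change of -0.41 did not pass (adjusted p = 0.067), although its groups did not overlap and it passed as a fall after quantile normalization (-0.57, adjusted p = 0.012).

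Among 21 chaperone and co-chaperone genes gathered by their symbols, 15 rose, 4 fell and 2 did not pass (median 1.36). Of all probe sets 14.2% were called higher and 32.3% lower. Fes1A, a nucleotide exchange factor of cytosolic HSP70, had 11416, 11078 and 7496 in high light and 288, 286 and 299 untreated, a change of 5.07 ± 0.17 (SE, limma adjusted p = 5.72e-18). Its paralogs moved the other way. Fes1B had 222, 213 and 213 in high light and 984, 831 and 811 untreated (-2.01 ± 0.18, limma adjusted p = 1.18e-09), and Fes1C had 159, 201 and 146 in high light and 445, 428 and 402 untreated (-1.34 ± 0.13, limma adjusted p = 9.13e-09). The groups did not overlap for any of the 3 genes. Over all probe sets tested, 18.4% had every high light array above every untreated one and 41.4% had every one below.

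BOB1, a NudC-domain protein with chaperone activity, rose by 3.51, the HSP90 partner SGT1A by 3.24 and the plastid chaperonin subunit Cpn60beta2 by 2.77. Its relatives Cpn60beta3 and Cpn60beta4 rose by 1.11 and 0.35. Of the other 2 genes that fell, ATERDJ2A, a J-domain protein of the endoplasmic reticulum translocon (-0.43), lost its call after quantile normalization, as did ATCRT1 (-0.48), a RING-type protein despite its symbol, so that the family then held 2 falls.

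The secretory pathway's own stress programme, the unfolded protein response, rose at all 3 kept genes of its list. Of all probe sets 14.2% were called higher. BZIP60, the transcription factor that is spliced by IRE1 when unfolded proteins gather in the endoplasmic reticulum, had 4773, 3984 and 4000 in high light and 594, 813 and 934 untreated, a change of 2.46 ± 0.18 (SE, limma adjusted p = 3.36e-11). The calreticulin CRT1b rose by 1.29 and AT5G07340, a calnexin, by 0.91. BZIP28 and BZIP17, the membrane-bound factors of the other arm, rose by 1.25 and 0.96, and the lumenal J-domain protein ATERDJ3B by 2.08. All high light arrays of these 6 genes were above all untreated ones, an order found in 18.4% of the probe sets tested.

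Of 5 kept genes of the mitochondrial stress list, all 5 rose (median 3.69), beside 14.2% of all probe sets higher. AT5G51440 was also one of them. AT2G41730 had 5677, 4285 and 3246 in high light and 139, 148 and 170 untreated, a change of 4.81 ± 0.27 (SE, limma adjusted p = 1.88e-13), on a probe set that can match more than 1 transcript. AT2G21640, a marker of oxidative stress, had 4545, 3634 and 3194 in high light and 319, 315 and 240 untreated (3.69 ± 0.29). NDB2, an external NADH dehydrogenase of the respiratory chain, had 640, 657 and 665 in high light and 221, 196 and 237 untreated (1.58 ± 0.21). AT5G09570 rose by 1.30. At all 5 every high light array was above every untreated array, an order found in 18.4% of the probe sets tested.

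HYH and STZ were among the transcription factors that rose. Of 12 kept bZIP genes 5 rose, 2 fell and 5 did not pass (median 0.062), beside 14.2% of all probe sets higher and 32.3% lower. The falls were those of BZIP61 (-2.65 to -2.36 with an array left out) and bZIP52 (-1.09 to -0.81). HYH, a bZIP partner of HY5 in light signalling, had 1719, 1900 and 1213 in high light and 44.0, 54.2 and 38.5 untreated, a change of 5.10 ± 0.25 (SE, limma adjusted p = 8.13e-15). STZ, a zinc finger repressor induced by many stresses, had 6738, 4916 and 6624 in high light, and untreated 71.7, 829 and a signal near 0, a change of 6.71 ± 1.04 (SE, limma adjusted p = 8.6e-06). Its 3 untreated arrays differed among themselves far more than its high light arrays did, and all lay below them. The stromal ascorbate peroxidase SAPX rose by 0.85, while its thylakoid relative TAPX had 2207, 2128 and 2172 in high light and 2078, 1710 and 1554 untreated (0.30, adjusted p = 0.11).

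Of the UDP-glycosyltransferases, which attach sugars to small molecules, UGT84A1 and UGT78D2 made the largest rises. UGT84A1, which attaches glucose to hydroxycinnamic acids, had 1395, 1870 and 829 in high light and 5.01, 6.29 and 4.83 untreated, a change of 7.67 ± 0.54 (SE, limma adjusted p = 1.05e-11). UGT78D2, the flavonoid 3-O-glucosyltransferase, had 6144, 7810 and 4538 in high light and 341, 362 and 411 untreated, a change of 4.02 ± 0.21. UGT78D1, a flavonol rhamnosyltransferase, rose by 1.54 and UGT84A3 by 1.65. The anthocyanin enzyme DFR had 402, 269 and 616 in high light and 260, 232 and 381 untreated, overlapping groups that did not pass (adjusted p = 0.43).

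Of 27 kept UGT members 9 rose, 10 fell and 8 did not pass, with a median of 0.00072, beside 14.2% of all probe sets higher and 32.3% lower. Among those that fell, UGT72E1 had 115, 117 and 101 in high light and 430, 383 and 468 untreated (-1.93 ± 0.49), UGT85A2 had 176, 176 and 203 in high light and 501, 501 and 653 untreated (-1.56), and UGT88A1 changed by -1.32. The cytokinin glucosyltransferase UGT76C2 (-1.65) lost its call after quantile normalization (adjusted p = 0.075). Of 12 cytochrome P450 genes 1 rose, 7 fell and 4 did not pass (median -0.68), beside 32.3% lower and a median of -0.22 over all probe sets. CYP71B29 had 61.4, 40.9 and 22.6 in high light and 169, 143 and 152 untreated (-1.98), and CYP71B22 had 127, 94.6 and 81.6 in high light and 301, 276 and 346 untreated (-1.61). Glutathione S-transferases, with 2 rises and 2 falls among 9 beside 14.2% of all probe sets higher and 32.3% lower, showed no common direction. GSTU28 changed by 2.16 and GSTU27 by -1.54.

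Calcium sensors and ubiquitin ligases held rises and falls. Of 7 calmodulin-like proteins 3 rose and 2 fell, beside 14.2% of all probe sets higher and 32.3% lower. CML38 had 1402, 1078 and 1690 in high light and 20.4, 34.9 and 87.3 untreated, a change of 5.07 ± 0.57 (SE, limma adjusted p = 5.66e-08), CML37 changed by 2.78 (1.85 with a pseudocount of 16), CML23 by 2.49 and CML42 by -1.64. Of 8 plant U-box ubiquitin ligases 4 rose and 1 fell, beside the same shares of all probe sets. PUB22 had 196, 160 and 126 in high light and 5.47, 6.11 and 33.7 untreated (3.77 ± 0.82), and PUB19 had 1926, 1457 and 1376 in high light and 100, 121 and 174 untreated (3.61 ± 0.35). PUB24, which acts with PUB22 to damp immune responses, changed the other way (-0.67), a call that was lost after quantile normalization (adjusted p = 0.17).

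Of 5 other WRKY genes that were kept, 2 rose and none fell, beside 14.2% of all probe sets higher and 32.3% lower. WRKY53, a senescence and defence regulator, had 420, 193 and 489 in high light and 52.9, 54.0 and 152 untreated (2.15 ± 0.42, limma adjusted p = 0.000136). WRKY22 had 181, 137 and 169 in high light and 14.5, 55.9 and 104 untreated (1.84), and this call was lost without untreated replicate 1 (1.07, adjusted p = 0.10). The glutaredoxin GRX480 had 368, 203 and 360 in high light and 21.4, 38.4 and 88.3 untreated (2.81 ± 0.43). The list of 5 kept salicylate, jasmonate and senescence genes holds WRKY53 and GRX480. Of these 5, 2 rose, 1 fell and 2 did not pass, beside 14.2% of all probe sets higher and 32.3% lower. The fall, of SAG101 (-0.87), was lost after quantile normalization (limma adjusted p = 0.13). The defensin PDF1.2 had 82.8, 69.1 and 212 in high light and 86.5, 34.9 and 55.9 untreated, overlapping groups with no call (adjusted p = 0.33).

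Of 11 SWEET sugar carriers 3 rose, 3 fell and 5 did not pass, beside 14.2% of all probe sets higher and 32.3% lower. SAG29, a SWEET induced in senescence, had 861, 985 and 1958 in high light and 85.6, 100.4 and 98.1 untreated (3.63 ± 0.81), and SWEET1 changed by 1.99 and SWEET2 by 1.90. SWEET4 had 100.1, 75.4 and 123 in high light and 278, 284 and 343 untreated (-1.61), and the phloem loader SWEET11 had 942, 956 and 1085 in high light and 1938, 1890 and 2557 untreated (-1.09).

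The largest falls, ranked by the same rule, were of a different kind. AT4G33980, a cold-regulated partner of the clock, had 23.5, 2.03 and 11.7 in high light and 220, 390 and 1065 untreated, a change of -5.53 ± 0.73 (SE, limma adjusted p = 7.83e-07). COR27, its close relative in the clock, had 4.35, 32.0 and 35.5 in high light and 318, 498 and 894 untreated, a change of -4.81 ± 0.74 (SE, limma adjusted p = 7.01e-06). Both transcripts were dim in every high light array and clear in every untreated one, while the clock gene GI had 1914, 1857 and 1386 in high light and 1446, 1330 and 1670 untreated, with overlapping groups and no call (adjusted p = 0.35).

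EXPA8, an expansin that loosens cell walls, had 142, 132 and 131 in high light and 3278, 3616 and 2264 untreated, a change of -4.46 ± 0.34 (SE, limma adjusted p = 6.19e-11). AT1G19960 had 309, 307 and 432 in high light and 5207, 7195 and 10234 untreated (-4.39 ± 0.31). The universal stress protein AT3G62550 had 410, 461 and 812 in high light and 7798, 7748 and 9025 untreated (-3.93 ± 0.75), and AT4G30650, of a family of small membrane proteins induced by cold and salt, had 671, 726 and 693 in high light and 6646, 10052 and 10314 untreated (-3.66 ± 0.21). Each of these 4 genes had untreated signals above 2000 on every array.

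Other large falls ended at dim signals. AT4G15830, an armadillo-repeat protein, had 3.26, 62.1 and 104 in high light and 606, 581 and 456 untreated, and its change of -4.16 was -2.74 without high light replicate 1. The receptor-like kinase AT5G59670 had 30.6, 9.54 and 23.7 in high light and 210, 312 and 516 untreated (-4.01). AT5G44820 had 4.99, 3.82 and 29.3 in high light and 75.7, 124 and 168 untreated, and its change of -3.62 was -2.32 with a pseudocount of 16. AT4G02800 changed by -3.50 and AT2G15960, with 669, 638 and 1000 in high light and 5599, 8627 and 10974 untreated, by -3.42.

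**Figure D2:**
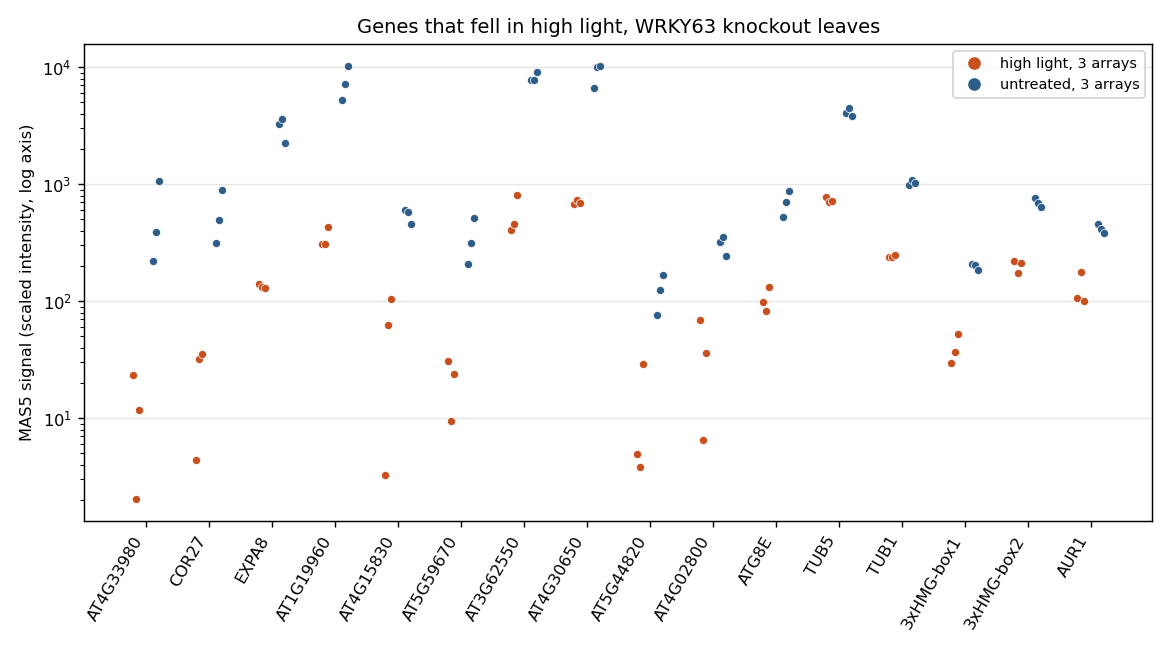
Signals of 16 genes that fell, in the 3 high light arrays (orange, left of each gene) and the 3 untreated arrays (blue, right) of the WRKY63 knockout, on a log axis. EXPA8 runs between 131 and 142 in high light and between 2264 and 3616 untreated, while AT4G33980 falls to dim signals of 2.03 to 23.5.

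Genes of the cell cycle fell. Of 26 kept genes of cell division and chromatin assembly, 19 fell, none rose and 7 did not pass (median -1.04), beside 32.3% of all probe sets called lower. In 23 of the 26 every high light array was below every untreated array, an order found in 41.4% of the probe sets tested. The mitotic chromatin protein 3xHMG-box1 had 29.6, 37.0 and 52.2 in high light and 206, 203 and 184 untreated (-2.33 ± 0.68, limma adjusted p = 0.00635), and 3xHMG-box2 had 221, 174 and 214 in high light and 770, 690 and 637 untreated (-1.78 ± 0.23, limma adjusted p = 4.4e-07). The mitotic kinase AUR1 had 106, 178 and 101 in high light and 456, 418 and 380 untreated (-1.74), TOPII, which untangles chromosomes, had 126, 137 and 134 in high light and 497, 388 and 308 untreated (-1.56), and the phragmoplast motor KINESIN-12B changed by -1.88. SIM, which restrains division and drives endoreduplication, fell as well, with 190, 177 and 232 in high light and 587, 693 and 778 untreated (-1.78).

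Histone genes belonged to the same list. HTB11 and HTB2 changed by -0.60 and -0.47, and HTB1 (719, 862 and 842 in high light and 924, 796 and 794 untreated) and HTB4 did not pass. Tubulins, the building blocks of microtubules, fell at 6 of 7 genes (median -0.80), beside 32.3% of all probe sets called lower. TUB5 had 781, 710 and 714 in high light and 4048, 4501 and 3814 untreated (-2.48 ± 0.13, limma adjusted p = 5.45e-14), TUB1 had 240, 237 and 246 in high light and 989, 1076 and 1020 untreated (-2.09), and TUA1 did not pass (459, 438 and 451 in high light and 416, 492 and 381 untreated). The ubiquitin-conjugating enzyme UBC20, which works with the anaphase-promoting complex, had 148, 142 and 181 in high light and 575, 623 and 526 untreated (-1.87). In the wider family of ubiquitin-conjugating enzymes and ubiquitin proteases 3 of 23 rose, 9 fell and 11 did not pass, shares near the 14.2% and 32.3% of all probe sets.

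Of 10 kept autophagy genes 8 fell, none rose and 2 did not pass (median -0.57), beside 32.3% of all probe sets called lower. ATG8E, one of the ubiquitin-like proteins that coat the autophagosome membrane, had 98.1, 82.4 and 133 in high light and 524, 709 and 881 untreated, a change of -2.74 ± 0.39 (SE, limma adjusted p = 2.4e-06). ATG8F had 1939, 1565 and 1973 in high light and 4642, 4776 and 5127 untreated (-1.42 ± 0.15), and ATG8G changed by -1.30. ATG8B changed by -0.68, a call lost after quantile normalization (adjusted p = 0.056). APG8A, with 1217, 889 and 861 in high light and 615, 882 and 1070 untreated, overlapped and did not pass.

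Of 13 expansins 4 fell and 9 did not pass (median -0.31), a share near the 32.3% of all probe sets. EXPB1 had 143, 109 and 105 in high light and 314, 349 and 266 untreated (-1.37) and EXLB1 changed by -1.39. Of 20 kept xyloglucan and cellulose modifying enzymes 3 rose, 7 fell and 10 did not pass, shares near the 14.2% higher and 32.3% lower of all probe sets. CSLC04, a synthase of the xyloglucan backbone, had 345, 307 and 484 in high light and 1149, 1451 and 1639 untreated (-1.91 ± 0.22). CSLA01, of a mannan synthase family, went the opposite way, with 1621, 2584 and 2627 in high light and 244, 256 and 381 untreated (2.95 ± 0.58). Of 7 tetraspanins 2 rose and 3 fell, beside the same shares of all probe sets, TET8 changing by 1.75 and TET3 by -1.43.

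Hormone genes were few. The auxin-responsive repressor IAA29 had 67.4, 51.4 and 61.9 in high light and 293, 362 and 277 untreated (-2.35 ± 0.75), and the auxin-conjugating enzyme GH3.3 changed by 1.32 ± 0.32. Cold and dehydration genes diverged. COR47 had 14032, 14242 and 12296 in high light and 5148, 6137 and 6247 untreated (1.21 ± 0.20), whereas COR15B had 2644, 2429 and 2159 in high light and 3326, 7519 and 6520 untreated (-1.19 ± 0.39, limma adjusted p = 0.015). The COR15B call was lost without untreated replicate 2 (-0.95, adjusted p = 0.082) or 3 (-1.06, adjusted p = 0.058).

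Of 11 kept nuclear genes for photosystem, ATP synthase and Calvin cycle proteins, 3 rose, 1 fell and 7 did not pass (median 0.18), beside 14.2% of all probe sets higher and 32.3% lower. The rises were those of RCA, which reactivates Rubisco, the Calvin cycle enzyme SBPASE and the photosystem I subunit PSAN, by 0.34, 0.32 and 0.31. After quantile normalization the list's median was -0.06, no member rose and 3 fell, so that no common direction can be given. RCA had 35388, 30262 and 27990 in high light and 27016, 23461 and 23479 untreated. LHCB4.2, an antenna protein of photosystem II, had 17742, 16196 and 17048 in high light and 21783, 20972 and 19731 untreated (-0.29 ± 0.10, limma adjusted p = 0.020), a fall with both scalings that was lost without untreated replicate 1 (-0.26, adjusted p = 0.071), untreated replicate 2 or high light replicate 2.

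PORB, the light-dependent step of chlorophyll synthesis, had 4572, 5911 and 4444 in high light and 10858, 11943 and 12558 untreated (-1.25 ± 0.14, limma adjusted p = 4.15e-08). CHLM, an earlier step, changed by -0.37, and the call was lost without high light replicate 1 (-0.27, adjusted p = 0.068). Genes carried by the plastid genome were seldom called, beside 46.5% of all probe sets. Of 47 for photosynthesis 1 rose, 2 fell and 44 did not pass (median -0.24), and of 19 for the plastid ribosome and RNA polymerase 2 fell and 17 did not pass (median -0.32). The falls of psbI (-0.43), ndhF (-1.96), rpl20 (-0.83) and rpoA (-0.72) were all lost without high light replicate 2, and after quantile normalization 7 of the 47 fell.

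Mitochondrial genome transcripts held no fall, with 4 rises and 9 not passing of 13 (median 0.59), beside 14.2% of all probe sets higher and 32.3% lower. With a filter at the 50th percentile, which leaves out dimmer probe sets, 1 rose and the median was 0.15. In Col-0 the median of the list was 1.19. The transcript of cox2, a subunit of cytochrome oxidase, had 382, 371 and 448 in high light and 88.3, 57.7 and 87.1 untreated (2.37 ± 0.24, limma adjusted p = 1.08e-08), and nad4L had 225, 282 and 203 in high light and 29.0, 69.8 and 106 untreated (1.95 ± 0.34). The probe sets of nad6 (3.17) and nad5 (1.17), subunits of complex I, can match more than 1 transcript. After quantile normalization 8 of the 13 rose.

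**Figure D3:**
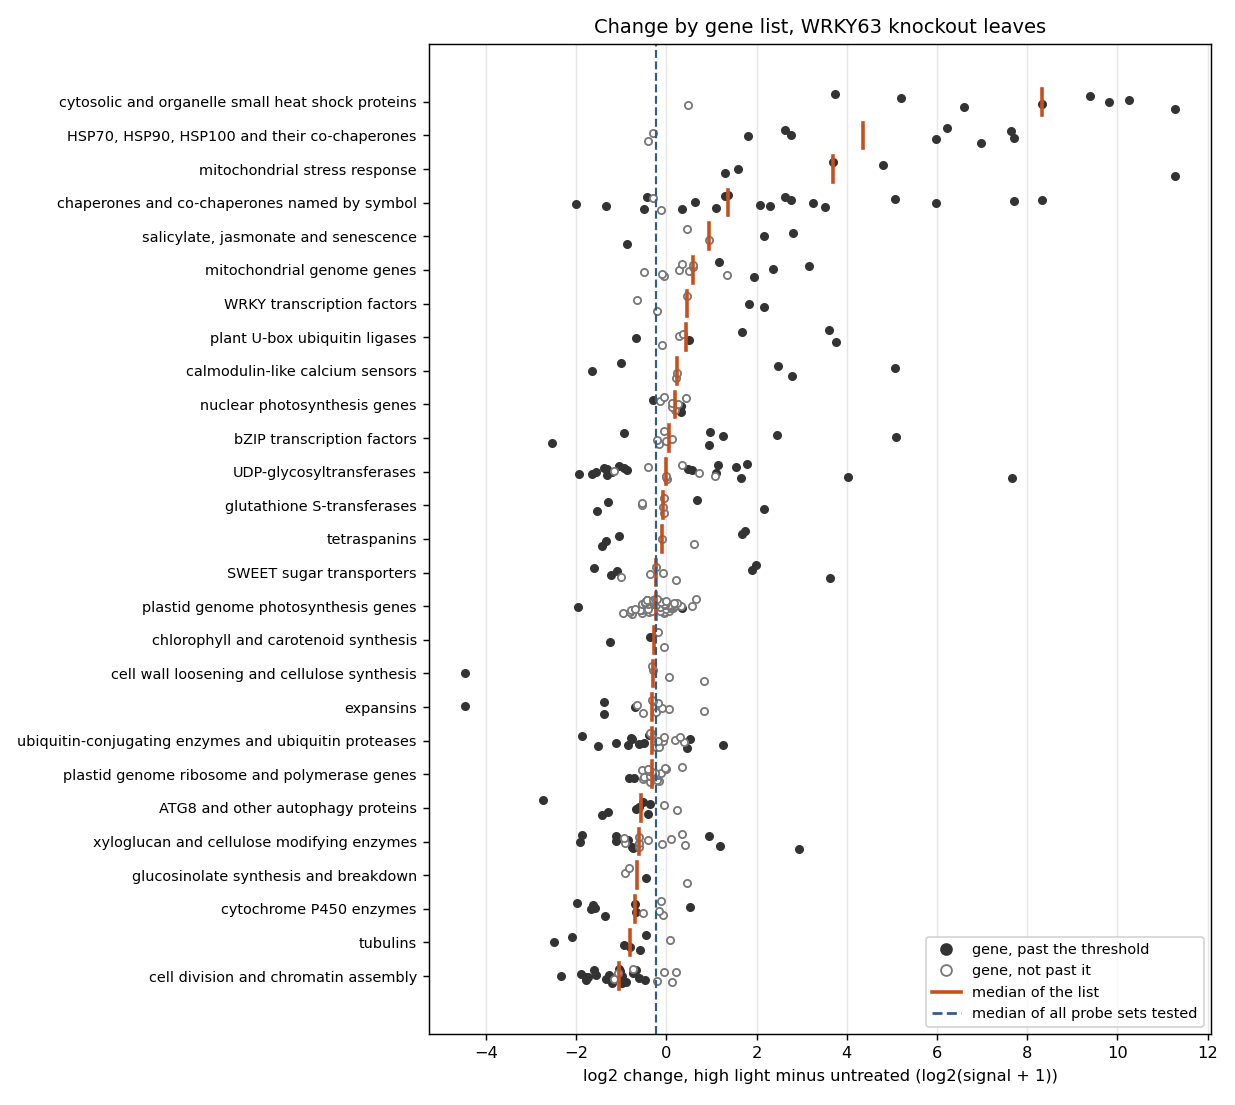
Log2 change in high light of each kept gene of the 27 lists with 4 or more kept genes, in the WRKY63 knockout, with lists sorted by their median (orange bar). Filled points passed an adjusted p of 0.05 and open ones did not, and the dashed line is the median of all probe sets tested (-0.22). The small heat shock proteins stand at the top with a median of 8.32 and the cell division genes at the bottom with -1.04.

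Whether the knockout answered high light differently from the wild type is the question its pairing with Col-0 addresses. In Col-0, 6995 probe sets (43.9%) were called, 2379 higher (14.9%) and 4616 lower (29%). Called in the same direction in both genotypes were 1777 higher probe sets (78.9% of those of the knockout and 74.7% of those of Col-0) and 3596 lower ones (69.9% of those of the knockout and 77.9% of those of Col-0), and 21 were called in opposite directions. Of 2005 probe sets called in the knockout and not in Col-0, the difference between the genotypes itself was called for 6. In all, limma called a different response for 18 of 15922 probe sets (0.113%), 9 in each direction, while 1554 had an unadjusted p under 0.05. After quantile normalization 6 were called, all with the higher change in the knockout, and with 1 array of the 2 genotypes left out 1 to 13 were. The median change of the small heat shock proteins was 8.32 in the knockout and 8.30 in Col-0. That of the list of HSP70, HSP90, HSP100 and co-chaperones was 4.37 in the knockout and 4.65 in Col-0. The cell division genes had -1.04 in the knockout and -0.86 in Col-0. Other lists had medians of opposite sign with the deposited scaling. That of the salicylate, jasmonate and senescence list was 0.94 in the knockout and -0.31 in Col-0, that of SWEET carriers -0.22 in the knockout and 0.56 in Col-0, that of the auxin list of 3 kept genes -0.68 in the knockout and 0.034 in Col-0, and that of nuclear photosynthesis 0.18 in the knockout and -0.073 in Col-0. After quantile normalization the knockout medians of the SWEET and nuclear photosynthesis lists reversed, to 0.041 and -0.062. The Col-0 medians given are with the deposited scaling. The gaps between the medians of the 2 genotypes were not tested. Over the 352 listed genes the difference was called for 1.

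**Figure D4:**
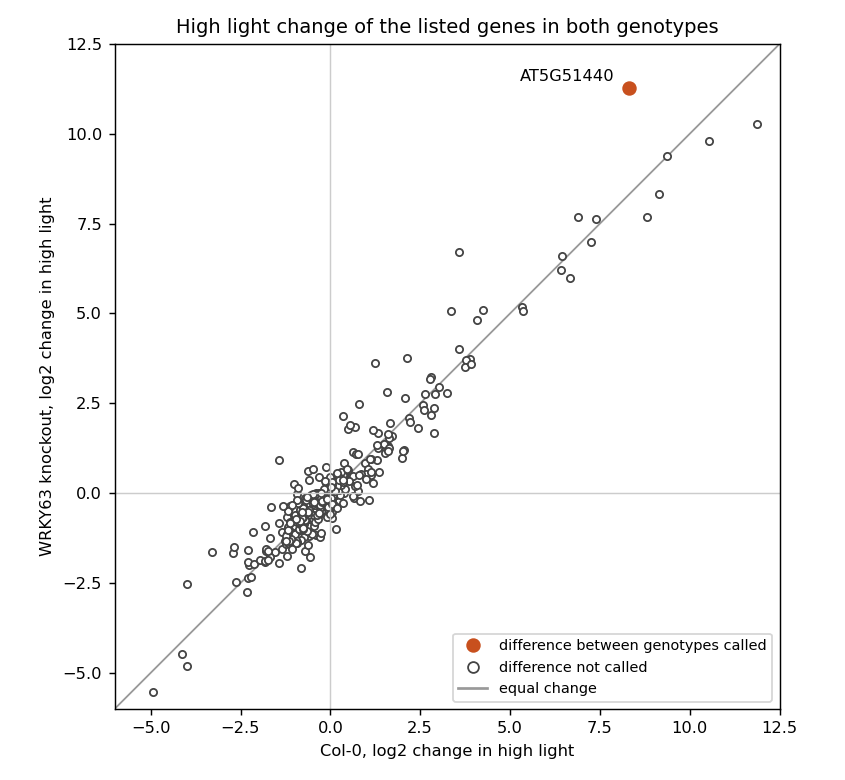
Log2 change in high light of the 352 kept genes of all lists, in the WRKY63 knockout (vertical axis) and in Col-0 (horizontal axis), with the line of equal change. The filled point, AT5G51440, is the 1 gene whose difference was called (11.28 in the knockout and 8.30 in Col-0).

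That gene was AT5G51440, the mitochondrial small heat shock protein. Its change exceeded that of Col-0 by 2.98 ± 0.41 (SE, limma adjusted p = 0.0024) and the mean of the other 4 genotypes by 2.56 ± 0.33 (SE, limma adjusted p = 0.000526). In high light it had 16939, 13329 and 11411 in the knockout and 16534, 17632 and 15580 in Col-0, which overlap. Untreated it had 4.89, 4.49 and 4.19 in the knockout and 67.6, 45.6 and 44.3 in Col-0. The 12 untreated arrays of the other genotypes ran between 10.8 and 67.6, all above the knockout, and the 12 high light arrays between 12719 and 20443, overlapping it. The gap thus lay in the untreated level, where the knockout was dimmer in all 3 arrays. The 3 untreated knockout signals are below the filter signal of 46.7, no detection calls were used, and with a pseudocount of 16 the difference was 1.45 (adjusted p = 0.054). It held in each of the 12 fits that left out 1 array of the 2 genotypes.

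The untreated level was also the dimmer one in AT4G39670, of the glycolipid transfer protein family. Its change exceeded that of Col-0 by 3.77 ± 0.66 (SE, limma adjusted p = 0.044). In high light it had 219, 199.8 and 155 in the knockout and 152, 149 and 127 in Col-0, and untreated 6.19, 5.67 and 7.59 in the knockout and 27.9, 232 and 65.5 in Col-0. All untreated knockout signals were below the filter signal of 46.7, and the call was lost with a pseudocount of 16. The brightest untreated Col-0 array, replicate 2, also had the highest actin 3′ over 5′ log2 ratio of the 30 arrays (2.35, against a median of 1.65). Without it and the WRKY63 overexpressor array that also stood apart (2.32), the difference was 2.97 (adjusted p = 0.066). The defensin-like AT3G05730 had 890, 945 and 1048 in high light and 330, 378 and 484 untreated in the knockout, against 1684, 1313 and 1855 in high light and 2247, 2293 and 2516 untreated in Col-0. It changed by 1.29 in the knockout and by -0.55 in Col-0, a difference of 1.84 ± 0.38 (SE, limma adjusted p = 0.0499).

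The other differences from Col-0 were smaller. FUG1, the chloroplast translation initiation factor, had 3409, 4529 and 3914 in high light and 3412, 3362 and 3054 untreated in the knockout, and 2962, 2760 and 3220 in high light and 4491, 4261 and 4486 untreated in Col-0, a difference of 0.83. AT5G52960 differed by 1.05 and the chloroplast peptidase AT2G47390 by 0.79. AT1G72230, a cupredoxin, went the other way, with 460, 552 and 515 in high light and 1231, 1409 and 1030 untreated in the knockout, and 580, 570 and 467 in high light and 388, 263 and 365 untreated in Col-0, a difference of -1.94. AT5G25475 differed by -1.19, AT1G76185 by -1.10, the cathepsin B-like protease AT1G02300 by -0.93 and AT5G66950 by -0.85. Of the 18 probe sets, 14 changed by more in the knockout, 10 changed in opposite directions, and in 12 the gap between the genotypes was larger untreated than in high light. The 10 named differences other than AT5G51440 had adjusted p-values of 0.0444 to 0.0499, and each lost the call when some array was left out.

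AT1G76185 and AT5G51440 were the probe sets called different from Col-0, from the WRKY63 overexpressor and from the mean of the other 4 genotypes. AT1G76185 had 99.7, 79.5 and 90.8 in high light and 256, 190 and 208 untreated in the knockout, and 184, 168 and 168 in high light and 199, 204 and 178 untreated in Col-0. Here the gap was in high light, where the other 12 arrays ran between 162 and 233, while the untreated arrays overlapped. Against the mean of the other 4 genotypes 4 probe sets (0.0251%) were called, 1 with the higher change in the knockout (the same number after quantile normalization, when no lower one was called), and the other named one was AT4G22160 (-1.14). AT5G51440 kept this call in every fit but that with a pseudocount of 16, and against the overexpressor its difference was 1.91 (adjusted p = 0.021), or 0.75 (adjusted p = 0.21) with that pseudocount, and this call was also lost when the compared arrays were fitted alone (adjusted p = 0.12) and without knockout untreated replicate 2 (0.051), high light replicate 1 (0.055) or high light replicate 2 (0.053).

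The knockout was also set against the line that overexpresses WRKY63. Between the knockout and the WRKY63 overexpressor 178 probe sets (1.12%) were called as responding differently, 82 with the higher change in the knockout and 96 with the lower. Of these, 4 were also called different between the knockout and Col-0. The test compares the 2 lines only and does not say which of them departed from Col-0. Of 17 genes with a difference from the overexpressor called and chosen by the naming rule, 12 lost the call under at least 1 alternative, 11 of them with an array left out, 7 with the compared arrays alone and 5 with the replicate block. AT3G10300, AT3G29240, AT4G22160, GRX480 and TET2 kept it in every alternative run, while AT1G52560, AT3G55430 and SHN3 did not. In 79 of the 178 the gap between the genotypes was larger untreated and in 99 larger in high light. AT1G52560, the HSP20-like gene, changed by 10.26 in the knockout and 6.13 in the overexpressor, a difference of 4.13 ± 0.88 (SE, limma adjusted p = 0.019). Its high light signals were 10728, 10541 and 7903 in the knockout and 15928, 14170 and 16413 in the overexpressor, and its untreated signals 4.12, 8.42 and 9.02 in the knockout and 262, 170 and 237 in the overexpressor. GRX480 had 368, 203 and 360 in high light and 21.4, 38.4 and 88.3 untreated in the knockout, and 340, 1034 and 557 in high light and 1019, 881 and 838 untreated in the overexpressor (a difference of 3.46). AT3G29240 had 1635, 1754 and 1914 in high light and 1486, 1657 and 1704 untreated in the knockout, and 1417, 1802 and 2643 in high light and 6450, 5842 and 7095 untreated in the overexpressor (1.90 ± 0.25, limma adjusted p = 0.001). In these 3 genes the untreated overexpressor was the brighter of the untreated groups, and AT1G52560 was dim in untreated Col-0 as well (0.858, 1.11 and 3.91).

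At AT3G10300 and AT3G55430 the gap between the lines was larger in high light. The EF-hand protein AT3G10300 had 894, 747 and 601 in high light and 529, 744 and 824 untreated in the knockout, and 2042, 2094 and 2566 in high light and 609, 580 and 552 untreated in the overexpressor (-1.83 ± 0.28, limma adjusted p = 0.0045). The glycoside hydrolase AT3G55430 had 1011, 927 and 1148 in high light in the knockout and 2054, 2517 and 3652 in the overexpressor, while the untreated order was the opposite one (963, 895 and 1028 in the knockout and 776, 665 and 689 in the overexpressor), a difference of -1.82. At TET2 and SHN3 it was larger untreated. The tetraspanin TET2 changed by 1.68 in the knockout and 3.25 in the overexpressor, a difference of -1.57 ± 0.26 (SE, limma adjusted p = 0.0051), with a log2 gap between the lines of -0.70 in high light and 0.88 untreated. The wax regulator SHN3 had 9.95, 61.1 and 35.5 in high light and 166, 153 and 197 untreated in the knockout, and 33.8, 74.3 and 6.68 in high light and 6.59, 7.23 and 16.4 untreated in the overexpressor (-3.96 ± 0.91, limma adjusted p = 0.032).

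**Figure D5:**
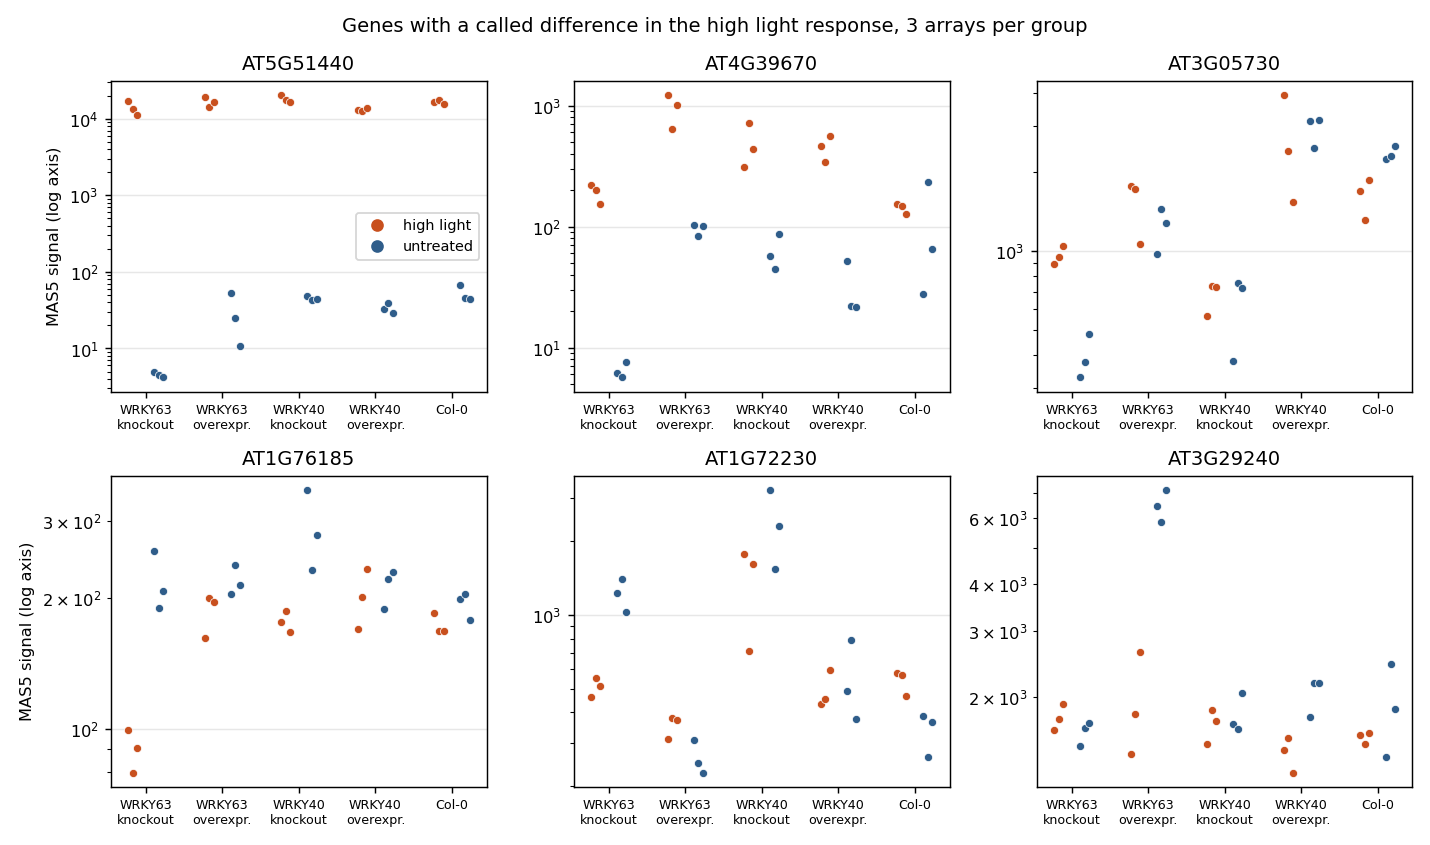
Signals of 6 genes with a called difference in response, in high light (orange, left) and untreated (blue, right), 3 arrays per group, for the WRKY63 knockout and the other 4 genotypes, with Col-0 last, on log axes. AT5G51440 is between 4.19 and 4.89 in the untreated knockout and between 10.8 and 67.6 in the other untreated arrays, AT1G76185 is low in the knockout in high light only, and AT3G29240 is high in the untreated WRKY63 overexpressor.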

How the data were processed

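Leaf RNA was labelled and hybridised to 30 Affymetrix arrays, 3 in each of 10 groups taken from the sample titles. The deposited table holds 1 intensity per probe set and array, a MAS5 signal per the submitters' processing notes, with its version and settings not given in the sources used here. Every column of the table was matched to a sample. From these signals log2(signal + 1) was computed, and probe sets under the 30th percentile of mean log2 signal were left out. All 30 arrays were fitted together with limma 3.58.1 in R 4.3.3 (eBayes with a variance trend), with Benjamini-Hochberg adjustment over all probe sets tested and a threshold of 0.05. Contrasts were high light against untreated in the knockout, and the difference of that response from Col-0, from the mean of the other 4 genotypes and from the WRKY63 overexpressor. Probe sets were named by the platform annotation, and those with several genes were not named. The text names the 10 largest rises and falls, the 5 largest at signals of 2000 or more, members of each list at up to 4 per direction, and up to 8 genes per direction of each difference; further list members were named after their values were seen, and 1 gene that the rule names for the overexpressor is not reported here. The gene lists and members were chosen with earlier results of these data known, and families grouped by gene symbol were made with the annotation in view. Quantile normalization, another pseudocount, other filters, a fit of the compared arrays alone, a replicate block, no variance trend, each array left out and 2 arrays of high actin ratio left out were tried. The fit was also run on simulated data with independent normal noise and no light effect apart from changes planted in the knockout. These settings differ from the data, and no result here rests on that run. Tables and plots were made with Python 3.11.15, pandas 2.3.3, numpy 2.4.6, scipy 1.17.1 and matplotlib 3.10.9. The number of arrays limits the precision, and no detection calls or batch records were used.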

Additional observations from a re-analysis of the deposited data

Results flagged for a closer look

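For the genes named here limma called a different response to high light in the WRKY63 knockout than in another genotype, with the main settings. Under at least 1 alternative, the call was lost for 11 of 11 named differences from Col-0 and 3 of 3 from the other 4 genotypes. Of 17 from the overexpressor chosen by the naming rule, 12 lost it. Each value is the log2 change in the knockout minus that in the other genotype.

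Against Col-0, the difference was 2.98 for AT5G51440, 3.77 for AT4G39670, 1.84 for AT3G05730, 1.05 for AT5G52960, 0.83 for FUG1 and 0.79 for AT2G47390. It was -0.85 for AT5G66950, -0.93 for AT1G02300, -1.10 for AT1G76185, -1.19 for AT5G25475 and -1.94 for AT1G72230. Against the mean of the other 4 genotypes it was 2.56 for AT5G51440, -0.97 for AT1G76185 and -1.14 for AT4G22160.

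Against the WRKY63 overexpressor, the difference was 4.13 for AT1G52560, 3.46 for GRX480, 2.28 for AT5G16980, 2.09 for AT4G30230, 1.99 for AT1G08050, 1.91 for AT5G51440 and 1.90 for AT3G29240. It was -1.57 for both AT4G22160 and TET2, -1.70 for AT1G72230, -1.82 for AT3G55430, -1.83 for AT3G10300, -2.03 for AT1G02660, -3.02 for AT5G25580 and -3.96 for SHN3.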

How the results depend on the processing

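The 7399 calls in the knockout stayed within 1.5 times under every alternative run (6384 to 6694 with an array left out), and 45 of 207 named genes lost their call under at least 1 of them, none turning direction. The 18 differences from Col-0 became 6 after quantile normalization, 0 with a pseudocount of 16 (1553 at an unadjusted p under 0.05), 5 with no filter, 10 with the compared arrays alone, 4 with the replicate block, 6 with no variance trend, 1 without the 2 arrays of high actin ratio, and 1 to 13 with an array left out, 13 only without Col-0 untreated replicate 1 or 3. The 4 differences from the other 4 genotypes became 1, 0 (1699 at an unadjusted p under 0.05) and 2 under the first 3 of these settings, 26 with a filter at the 50th percentile, 2 with the replicate block, 16 without the 2 arrays, and 1 to 52 with an array left out, the highest without WRKY40 knockout untreated replicate 1. The 178 differences from the overexpressor became 74 with the replicate block and 70 to 307 with an array left out, the lowest without knockout high light replicate 2 and the highest without overexpressor high light replicate 1. Deviations of same-numbered arrays had correlations of -0.072, 0.062 and 0.14, and those of other pairs ran from -0.19 to 0.13. With 3 arrays a group, these values cannot decide whether the numbers pair arrays.

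With a filter at the 50th percentile, which tests fewer genes, list medians were 4.25 for mitochondrial stress, 2.48 for salicylate, jasmonate and senescence, 1.72 for chaperones by symbol, 1.72 for calmodulin-like proteins, 0.98 for bZIP, 0.98 for WRKY, 0.53 for glycosyltransferases, -0.33 for cytochrome P450, 1.06 for SWEET (reversed), -0.74 for xyloglucan enzymes, -0.74 for cell division, -1.04 for tetraspanins and 0.15 for mitochondrial genome genes. After quantile normalization they were -0.062 for nuclear photosynthesis (reversed), 0.70 for U-box ligases, 0.32 for bZIP, 0.28 for glycosyltransferases, -0.23 for glutathione S-transferases, 0.041 for SWEET (reversed), -0.42 for xyloglucan enzymes, -0.91 for tubulins, -0.76 for cell division and 0.20 for tetraspanins (reversed). With a pseudocount of 16 glycosyltransferases were at -0.0016 (reversed). With an array left out, medians ran from -0.089 to 0.49 for calmodulin-like proteins, -0.046 to 0.22 for bZIP, -0.12 to 0.12 for glycosyltransferases, -0.16 to -0.036 for glutathione S-transferases, -0.51 to -0.23 for expansins and -0.90 to -0.70 for tubulins. The cause was not tested. Dim probe sets limit the smallest signals, since no detection calls were used.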
